A study of Caenorhabditis elegans with 12 samples.

Results

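Among the H3K9me2 peaks of the *jhdm-1* ChIP-seq experiment, 992 of 5883 had a closely matched peak in the *wdr-5* experiment. These members were chosen by the positions of the peaks alone. A *jhdm-1* peak was taken when 1 *wdr-5* peak on the same chromosome overlapped it by at least 50% of the length of each of the 2 peaks. Lengths, overlaps and edges therefore enter the choice, so they are given as descriptions and were not tested. The *jhdm-1* experiment compared *jhdm-1 (ok2364)* mutants with wild type (N2) in early- and mid-gen populations. The *wdr-5* experiment compared *wdr-5 (ok1417)* mutants with wild type (N2) in early-, mid- and late-gen populations. All samples were whole animals of mixed stage, grown on OP50 bacteria and collected as populations, so signal from the germline and from somatic tissues was pooled. The labels and the study's methods number 2 replicates in the *jhdm-1* experiment and 3 in the *wdr-5* experiment, but each deposited list is 1 union over all groups of its experiment. The labels state that in early- and mid-gen populations the second wild-type replicate of the *jhdm-1* experiment is the third of the *wdr-5* experiment, so that 1 library of each generation served both lists. With 2 replicates and a rule that a peak be present in 2, any peak that entered the *jhdm-1* list from wild type was present in such a library. How many matched peaks rest on these shared libraries was not tested, since the lists name no library.

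H3K9me2 is dimethylation of lysine 9 on histone H3, a mark of repressed chromatin. In *C. elegans* it is deposited by the methyltransferase MET-2 and is found mainly on the arms of the chromosomes, where repeats are frequent and where chromatin is tethered to the nuclear envelope. WDR-5 is a subunit of COMPASS, the complex that methylates lysine 4 of the same histone at transcribed genes, and JHDM-1 is a putative H3K9 demethylase. A broad peak marks a stretch in which the antibody recovered more DNA than expected from the input. Its 2 edges are therefore estimates of where a domain begins and ends, and matched peaks allow these estimates to be compared between experiments.

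The matched peaks made up 16.9% of the *jhdm-1* list (95% Wilson interval from 15.9% to 17.8%). They were 30.4% of the 3258 *jhdm-1* peaks that overlapped any *wdr-5* peak by 1 bp or more (from 28.9% to 32.1%). The intervals cover counting error only, because the lists hold no values of single replicates. Each matched peak had its own partner, so 992 *wdr-5* peaks were matched, which was 9.49% of the 10457 in that list. The other 2266 overlapping *jhdm-1* peaks and the 2625 with no overlap are used below for comparison. The matched pairs were 22.3% of all 4453 overlapping pairs, and they held 0.912 of the 2.42 Mb that the lists had in common, or 37.6%. The rule gives such pairs a large overlap by construction. Within the pairs, the shared stretch was 78.3% of the length of the *jhdm-1* peaks and 78.1% of the length of the *wdr-5* peaks.

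A match did not mean that no other peak was involved. Of the matched *jhdm-1* peaks, 833 overlapped only their partner, 136 overlapped 2 *wdr-5* peaks and 23 overlapped 3 or more. Together, 16.0% of the matched peaks met 2 or more *wdr-5* peaks (from 13.9% to 18.4%), against 27.4% of the other overlapping peaks (from 25.6% to 29.3%). From the other side, 9 of the matched *wdr-5* peaks overlapped 2 or more *jhdm-1* peaks. The 159 matched peaks that met several *wdr-5* peaks were long, with a median of 1505 bp, against 841 bp for the matched peaks that met only 1. The partner covered 61.7% of such a peak at the median, and all *wdr-5* peaks together covered 83.6%. These peaks met 187 further *wdr-5* peaks, which had a median length of 433 bp.

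The longest matched peak lay on Chromosome X, from 7350603 to 7363418 on WS220/ce10, and was 12816 bp long. It contained its whole *wdr-5* partner of 10164 bp, which ran from 7351291 to 7361454. The next longest, 10342 bp, ran from 6566528 to 6576869 on Chromosome III, and its partner of 9142 bp ran from 6565907 to 6575048. Both domains lay in the central part of their chromosome, at 41.5% of the length of Chromosome X and at 47.7% of the length of Chromosome III. On Chromosome III the *jhdm-1* peak also met 2 further *wdr-5* peaks, while on Chromosome X it met none. The third longest lay on the right arm of Chromosome IV, from 14207987 to 14216190, with 8204 bp against 5053 bp for its partner, and the fourth was 7662 bp long and lay on the right arm of Chromosome V, from 20299307 to 20306968, with a partner of 4137 bp. The fifth, on the right arm of Chromosome I, was 6554 bp long and lay wholly inside a *wdr-5* peak of 9666 bp. On Chromosome II the longest matched peak was 3834 bp long, from 14835148 to 14838981, and contained its partner of 2441 bp.

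**Figure D1:**
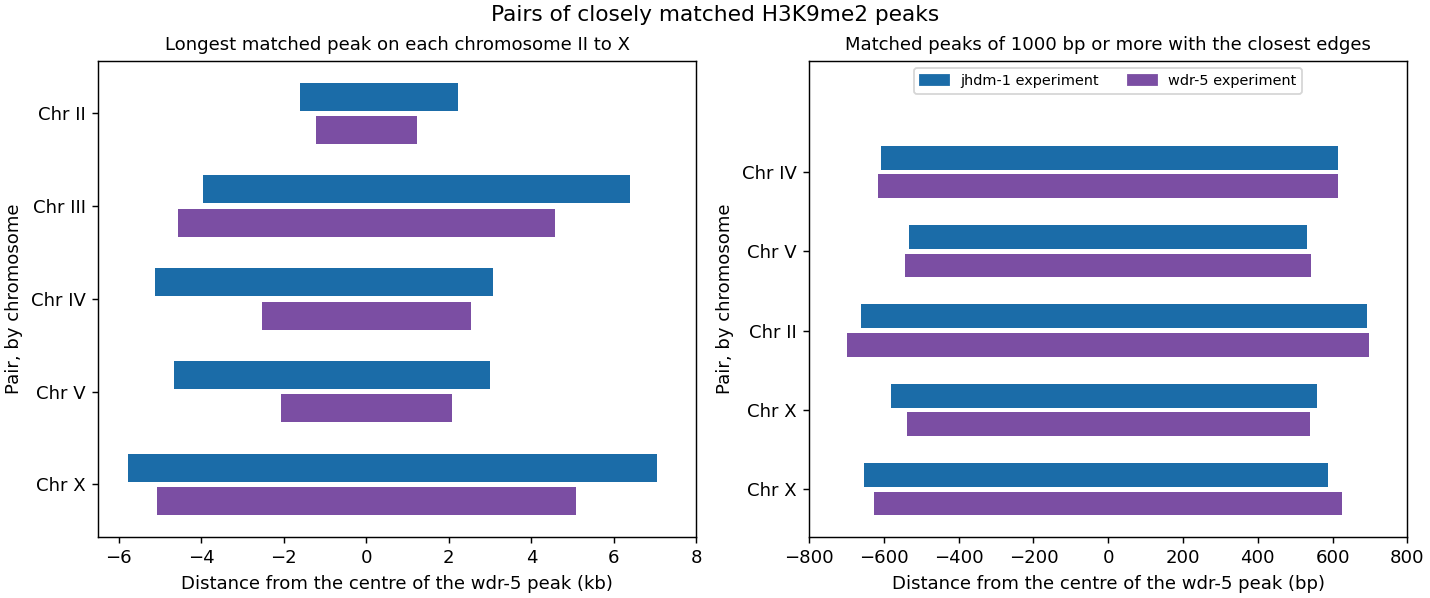
Bars show the extent of the *jhdm-1* peak (blue) and of its *wdr-5* partner (purple) for 10 pairs, as distance from the centre of the *wdr-5* peak, in kb on the left and in bp on the right. On the left is the longest matched *jhdm-1* peak on each of Chromosomes II to V and X. Of these 5, 4 extend past their partner on at least 1 side by 1821 bp or more. On the right no edge differs by more than 42 bp.

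The closest agreement among matched peaks of at least 1000 bp outside Chromosome I was on the left arm of Chromosome IV. There the *jhdm-1* peak ran from 2277193 to 2278413 and the *wdr-5* peak from 2277185 to 2278413, so that the right edges fell on the same base and the left edges 8 bp apart. On Chromosome V the peaks ran from 2140992 to 2142054 in the *jhdm-1* list and from 2140982 to 2142065 in the *wdr-5* list, with edges 10 and 11 bp apart. On Chromosome II the edges of a *jhdm-1* peak from 6185182 to 6186533 lay 38 and 6 bp from those of its partner. A pair of further examples lay on Chromosome X, from 7017387 to 7018527 with edges 42 and 21 bp apart, and from 3770554 to 3771793 with edges 25 and 39 bp apart. All 5 of these *jhdm-1* peaks overlapped 1 *wdr-5* peak only. On Chromosome II the nearest other *jhdm-1* peak was 99468 bp away and the nearest other *wdr-5* peak 102854 bp, so this match stood far from any neighbour in either list.

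The study drew 2 views of Chromosome III with coverage tracks of the *wdr-5* experiment only, and *jhdm-1* peaks were looked up there in the deposited list. In the view at the locus of the S6 kinase gene *rsks-1*, the 1 *jhdm-1* peak of the list was closely matched. It ran from 11242516 to 11243471 and was 956 bp long, and its partner of 1085 bp ran from 11242135 to 11243219. The overlap of 704 bp was 73.6% of the *jhdm-1* peak and 64.9% of the *wdr-5* peak. Its edges lay 381 and 252 bp to the right of those of its partner. In the other drawn view, on the left arm of the same chromosome, 0 of 7 *jhdm-1* peaks were closely matched. With 16.9% matched over the whole list, a count among 7 peaks says little. Between 1 and 2 Mb, the stretch that holds this view, 24 of 150 *jhdm-1* peaks were matched (16.0%). There 86.7% overlapped a *wdr-5* peak by 1 bp or more. The peaks were not assigned to exons, introns or other parts of genes, because gene positions on WS220/ce10 were not used here.

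The matched *jhdm-1* peaks were of middling length. Their median was 927.5 bp (95% interval from 871 to 971 bp), with quartiles of 574.5 and 1458.5 bp and a range from 200 to 12816 bp. The other overlapping *jhdm-1* peaks had a median of 1020.5 bp (from 978 to 1049 bp), and the *jhdm-1* peaks with no overlap had a median of 676 bp (from 650 to 705 bp). Matched peaks were thus 0.909 times as long as other overlapping peaks and 1.37 times as long as peaks with no overlap, at the median. The first ratio turned to 1.18 with peaks within 1000 bp of each other merged, and to 1.016 among peaks that met only 1 *wdr-5* peak, so which of these groups is longer depends on how neighbouring peaks are treated. On the *wdr-5* side, matched peaks had a median of 957 bp (from 923 to 1002 bp). The *wdr-5* peaks that were overlapped but not matched had a median of 488.5 bp (from 466 to 512 bp), and the matched ones were 1.93 times as long as the whole *wdr-5* list at the median. A *wdr-5* peak under 100 bp cannot be matched, since the shortest *jhdm-1* peak was 200 bp long.

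The share of *jhdm-1* peaks that were matched depended on length in a different way than the share that overlapped at all. It was 12.1% among the 920 peaks of 300 to under 500 bp, 20.7% among the 1044 peaks of 1000 to under 1500 bp (from 18.3% to 23.3%) and 11.9% among the 67 peaks of 5000 bp or more (from 6.18% to 21.8%). In the same classes the share with any overlap was 41.4%, 63.3% and 91.0%. Among overlapping peaks the matched share was highest at 37.1% for 750 to under 1000 bp (from 32.9% to 41.5%) and was 13.1% for 5000 bp or more (from 6.80% to 23.8%). A long *jhdm-1* peak almost always met some *wdr-5* peak, but in few cases one of similar extent. Of the 90 *jhdm-1* peaks of exactly 200 bp, the shortest in the list, 10 were matched.

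**Figure D2:**
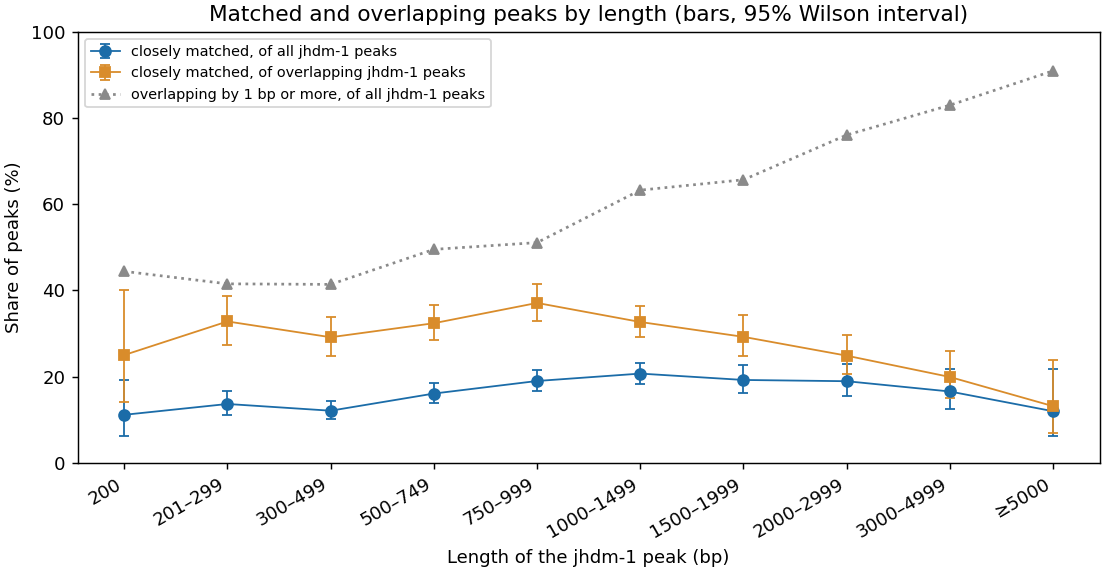
Points show, by length of the *jhdm-1* peak, the share closely matched among all *jhdm-1* peaks (blue) and among overlapping ones (orange), with 95% Wilson intervals, and the share with any overlap (grey). The grey line rises to 91.0% at 5000 bp or more, while the blue points stay between 11.1% and 20.7%.

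In 1885 of the 2266 other overlapping *jhdm-1* peaks (83.2%, from 81.6% to 84.7%), the length differed by more than a factor of 2 from that of the best *wdr-5* peak, which no matched pair can do. In the other 381 (16.8%) the lengths were within that factor and the overlap alone fell short. By side, in 1228 of the 2266 (54.2%, from 52.1% to 56.2%), the overlap covered at least 50% of the best *wdr-5* peak but less of the *jhdm-1* peak. The medians of these were 1467.5 bp for the *jhdm-1* peak and 379 bp for the *wdr-5* peak. The opposite held in 751 (33.1%), in which a *jhdm-1* peak with a median of 542 bp met a *wdr-5* peak with a median of 2190 bp. In 287 (12.7%) the overlap was under 50% of both peaks.

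Matched peaks did not cluster near complete agreement. The reciprocal overlap, the smaller of the 2 shares of a pair, had a median of 66.5% with quartiles of 57.7% and 77.3%. It reached 90% or more in 49 pairs and lay between 50% and 55% in 163. Just below the threshold, 194 peaks had a reciprocal overlap from 45% to 50%, so the threshold divides a continuous range. The matched peaks just inside it were 1263 bp long on Chromosome II, 2434 bp long on Chromosome III and 488 bp long on Chromosome I, with reciprocal overlaps of 50.04%, 50.04% and 50.05%. The peaks just outside it were 879 bp long on Chromosome I, 415 bp long on Chromosome II and 1632 bp long on Chromosome V, with 49.94%, 49.88% and 49.88%.

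Within a pair the rule allows the lengths to differ by up to a factor of 2 in either direction, and the pairs filled this range. The length of the *jhdm-1* peak over that of the *wdr-5* peak ran from 0.501 to 1.998, with quartiles of 0.725 and 1.35 and a median of 0.959 (from 0.929 to 0.995). Lengths were within 10% of each other, relative to the *wdr-5* peak, in 157 pairs (15.8%). The *jhdm-1* peak exceeded its partner in 460 pairs, or 46.4% (from 43.3% to 49.5%), the *wdr-5* peak exceeded it in 531, and in 1 pair the lengths were equal. This balance changed with length. Of the 204 pairs in which it was under 500 bp, the *jhdm-1* peak exceeded its partner in 31.9% (from 25.9% to 38.5%) and of the 132 pairs in which it had 2000 bp or more, in 67.4% (from 59.0% to 74.8%). Classes set by the length of the *jhdm-1* peak favour this order. Among the matched peaks that overlapped only 1 *wdr-5* peak, the *jhdm-1* peak exceeded its partner in 39.1%. The lengths had a Pearson r of 0.866 on the log scale and a Spearman rho of 0.843 over the 992 pairs, a relation that the rule itself imposes in large part.

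**Figure D3:**
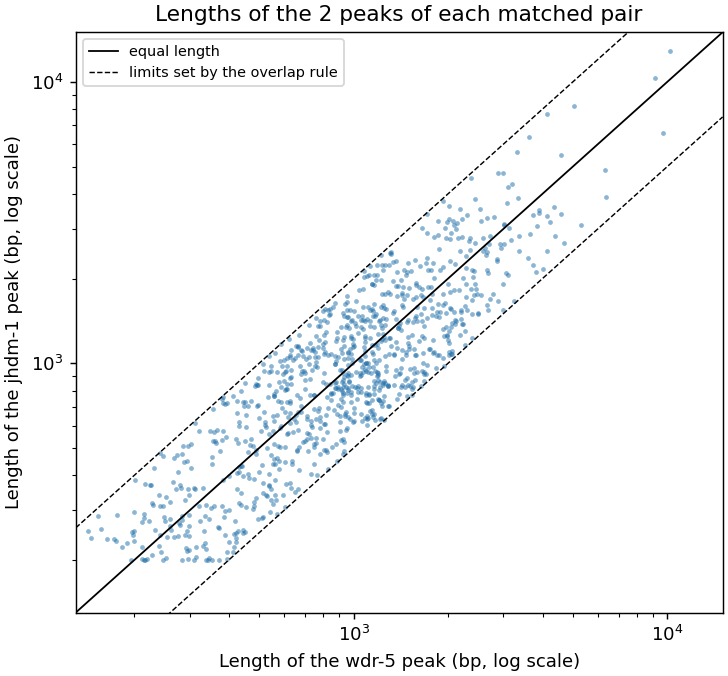
Each point is 1 of the 992 matched pairs, with the length of the *wdr-5* peak on the x-axis and of the *jhdm-1* peak on the y-axis, both in bp on a log scale. The points fill the band between the dashed limits of the rule, with 460 above and 531 below the line of equal length.

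The edges of matched peaks lay a median of 154.5 bp from those of their partner (95% interval from 142 to 171 bp, left and right edges pooled). In the other overlapping peaks, each set against the *wdr-5* peak with the largest reciprocal overlap, the median was 548 bp (from 524 to 572 bp). Left and right edges of matched peaks were alike in this respect, with medians of 159.5 bp and 148.5 bp. The centres of matched peaks lay 116.5 bp apart at the median (from 103 to 130 bp), against 411.25 bp in other overlapping peaks. Few edges fell on the same base. This was so for 2 left edges and 7 right edges, and in no pair for both. Within 10 bp lay 5.04% of the edges of matched peaks (from 4.16% to 6.09%) and 1.63% of those of other overlapping peaks (from 1.30% to 2.04%). Within 100 bp these shares were 37.0% and 12.4%, and within 500 bp they were 85.5% and 46.8%.

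At least 1 edge lay within 100 bp in 577 matched pairs (58.2%, from 55.1% to 61.2%). Both did in 157 (15.8% of matched pairs, from 13.7% to 18.2%), which are part of the 577. Among the other overlapping peaks, 559 had at least 1 edge within 100 bp and 2 had both. The signed differences at the left and right edges had a Pearson r of 0.0378 and a Spearman rho of 1.44e-05 over the 992 pairs. The rule bounds both differences, so these values describe the chosen pairs only. The edge distance grew with length. It was 59.5 bp at the median for *jhdm-1* peaks under 500 bp, 142 bp from 500 to under 1000 bp, 243 bp from 1000 to under 2000 bp and 486.5 bp from 2000 bp. As a share of the length of the *jhdm-1* peak it stayed between 16.8% and 19.8% in these classes. The rule limits the edge distance relative to length, so it sets this pattern in part.

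**Figure D4:**
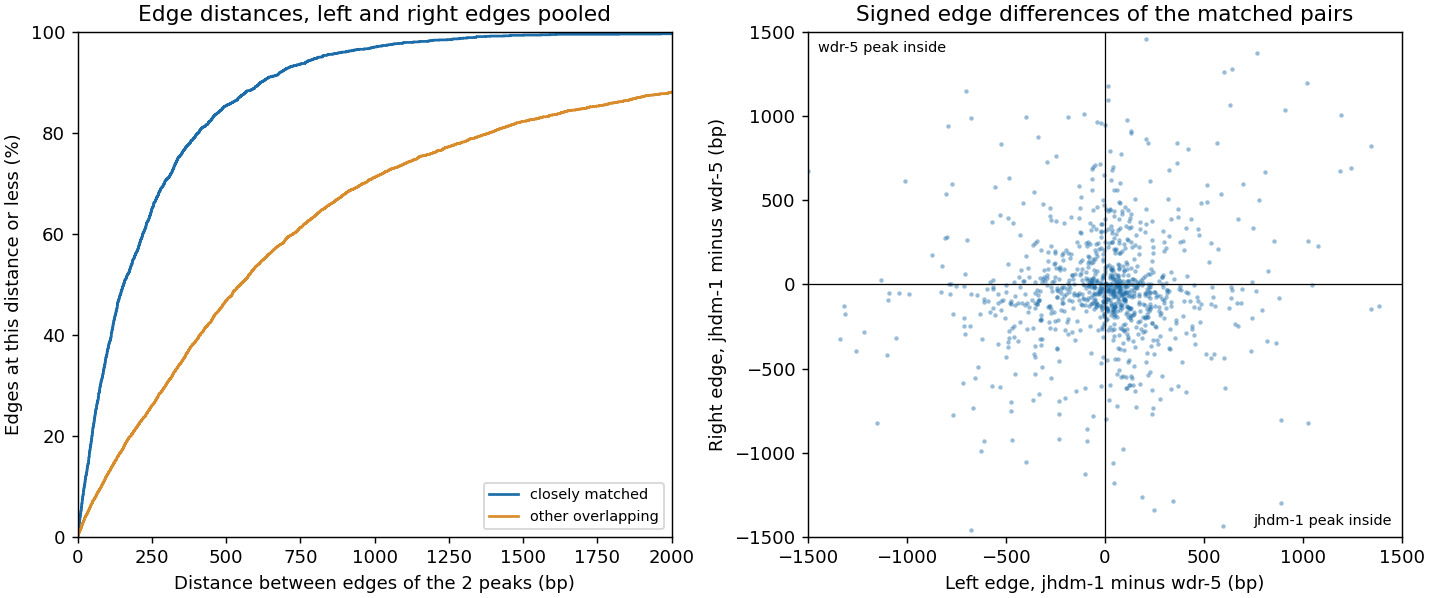
Left, the share of edges at or below each distance in bp for matched (blue) and other overlapping (orange) *jhdm-1* peaks, drawn to 2000 bp, beyond which lie 6 and 538 edges. Right, signed differences of the left and right edges of each matched pair in bp, with 12 pairs outside the drawn square. Medians are 154.5 bp for matched and 548 bp for other overlapping peaks.

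Over all pairs together, the edges of the *jhdm-1* peaks lay slightly to the inside of those of their partners. In classes set by the length of the *jhdm-1* peak, it exceeded its partner in 31.9% of pairs under 500 bp and in 67.4% from 2000 bp. Such classes favour this order by themselves. The left edge was inside the *wdr-5* peak in 553 pairs (55.7%, from 52.6% to 58.8%) and the right edge in 589 (59.4%, from 56.3% to 62.4%). The median difference was 30.5 bp at the left edge (from 14 to 42 bp) and -39 bp at the right edge (from -49 to -24 bp), *jhdm-1* minus *wdr-5*. The *wdr-5* peak contained the whole *jhdm-1* peak in 345 pairs, or 34.8% (from 31.9% to 37.8%). The reverse held in 190, or 19.2% (from 16.8% to 21.7%). In the remaining pairs the peaks were staggered, with the *jhdm-1* peak to the right in 208 and to the left in 249. The number of replicates and the generations sampled differ between the experiments along with the mutant. Per the study's methods, the mix of sequencing platforms and read lengths over the replicates also differs. The shortest peak differs too, with 200 bp in the *jhdm-1* list and 46 bp in the *wdr-5* list. These differences cannot be told apart.

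On the chromosomes, most matched peaks lay toward the ends, as did most peaks of the whole *jhdm-1* list. With every chromosome split at equal lengths into a left, a central and a right part, the 2 outer ones, here called arms, held 92.4% of matched peaks (from 90.6% to 93.9%). They held 92.8% of other overlapping peaks (from 91.7% to 93.8%) and 89.9% of the whole *jhdm-1* list (from 89.1% to 90.6%). Among *jhdm-1* peaks with no overlap the share was 86.4% (from 85.0% to 87.6%). On the arms, 17.3% of 5287 *jhdm-1* peaks were matched (from 16.3% to 18.4%), and in the centres 12.6% of 596 (from 10.2% to 15.5%). Any overlap was also more frequent on the arms, at 57.1% against 39.9% in the centres. Among overlapping peaks, the matched share was 30.4% on the arms (from 28.8% to 32.0%) and 31.5% in the centres (from 25.9% to 37.7%), and these intervals overlap. The 917 matched peaks on the arms had a median length of 926 bp (from 866 to 962 bp), against 1024 bp for the 75 in the centres (from 726 to 1261 bp), and edges 157.5 bp from those of their partner (from 145 to 176 bp), against 119.5 bp in the centres (from 87 to 155 bp). No test was made of these differences, since neighbouring peaks are not independent and the lists give no replicates.

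By chromosome, the matched share of all *jhdm-1* peaks was highest on Chromosome V, with 215 of 1041 (20.7%, from 18.3% to 23.2%). It was 193 of 1027 on Chromosome IV (18.8%), 182 of 1120 on Chromosome III (16.2%), 153 of 985 on Chromosome II (15.5%), 53 of 358 on Chromosome X (14.8%, from 11.5% to 18.9%) and 196 of 1352 on Chromosome I (14.5%, from 12.7% to 16.5%). Neighbours in this order have overlapping intervals. The interval of Chromosome V lies wholly above those of Chromosomes I and II, and that of Chromosome IV lies just above that of Chromosome I. The order changed when peaks with any overlap were the base. The matched share was then highest on Chromosome IV at 34.2% (from 30.4% to 38.2%), with 32.3% on Chromosome V (from 28.8% to 35.9%), 30.8% on Chromosome II (from 26.9% to 35.0%), 30.3% on Chromosome X (from 24.0% to 37.5%), 28.4% on Chromosome III (from 25.1% to 32.1%) and 27.4% on Chromosome I (from 24.2% to 30.8%). All of these intervals overlap one another. Chromosome X held 5.34% of the matched peaks and 6.09% of the whole *jhdm-1* list. The median length of matched peaks was alike on all chromosomes, from 916 bp on Chromosomes II and X to 937 bp on Chromosome V. The median edge distance ranged from 123.5 bp on Chromosome X to 183.5 bp on Chromosome I.

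The right part of Chromosome V stood highest among the 18 chromosome parts, with 148 of 607 *jhdm-1* peaks matched (24.4%, from 21.1% to 28.0%). The *wdr-5* list covered 17.5% of it. The left part of Chromosome III had a denser *wdr-5* list, which covered 26.4%, and a lower matched share of 16.9% (from 14.0% to 20.4%). The left part of Chromosome V, where the *wdr-5* list covered 4.82%, had 16.1% matched (from 12.5% to 20.4%). In the centres the matched share ran from 8.33% on Chromosome X, with 4 of 48 peaks, to 20.4% on Chromosome II, with 11 of 54. Over the 6 chromosomes together, cut into 10 bins of equal length from left to right, the matched share was 18.8% in bin 1, 10.1% in bin 7 and 20.0% in bin 9.

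**Figure D5:**
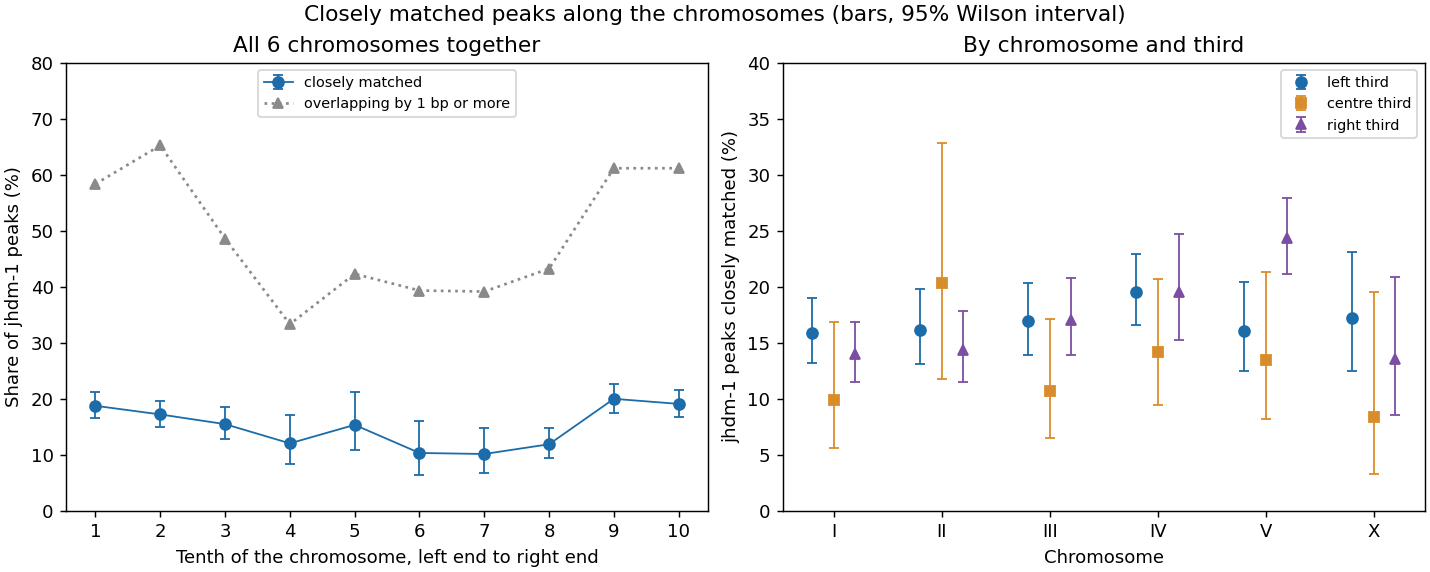
Left, share of *jhdm-1* peaks closely matched (blue, with 95% Wilson intervals) and with any overlap (grey) in 10 bins of equal length along the chromosome, from left to right. Right, matched share by chromosome and by left, centre and right part, with 95% Wilson intervals. The right part of Chromosome V is at 24.4%, and the blue points on the left run from 10.1% to 20.0%.

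At a finer scale, 95 of 103 windows of 1 Mb held at least 1 matched peak. The 10 windows richest in them held 330, or 33.3%, but these windows were picked by that count. The whole *jhdm-1* list was uneven too, with 144 peaks between 18 and 19 Mb on Chromosome V and 35 between 12 and 13 Mb on Chromosome IV. The share of all *jhdm-1* peaks in the 10 windows was not computed. The highest count was 48 of 144 *jhdm-1* peaks (33.3%) between 18 and 19 Mb on Chromosome V. Any overlap was also frequent there, at 83.3% of *jhdm-1* peaks against 57.1% on all arms, and *wdr-5* peaks covered 36.8% of the window. Over the 74 windows with at least 20 *jhdm-1* peaks the matched share ran from 2.86% to 33.3% with a median of 15.8%. The lowest was 1 of 35 peaks, between 12 and 13 Mb on Chromosome IV. Across these windows the matched share had a Pearson r of 0.468 and a Spearman rho of 0.513 with the share of the window covered by *wdr-5* peaks. For the share with any overlap these were 0.712 and 0.693. Both shares are drawn from the same peaks as the cover, and windows of 1 chromosome are not independent.

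Some matched peaks followed one another, but most stood alone. In the *jhdm-1* list, the next peak on the chromosome was matched after 242 of 991 matched peaks (24.4%, from 21.8% to 27.2%) and after 750 of 4886 other peaks (15.4%, from 14.4% to 16.4%). Over the whole *jhdm-1* list 16.9% of peaks were matched, and this share varied between chromosome parts. Whether the order of the peaks adds to that was not tested. In all, 577 matched peaks (58.2%) stood alone and 415 (41.8%) in runs of 2 or more, and the longest run had 7. This run lay in the same window of Chromosome V and spanned 30.7 kb, from 18729767 to 18760512. Its *jhdm-1* peaks were between 448 and 3263 bp long and had reciprocal overlaps from 53.1% to 74.5%. The longest of them ran from 18740492 to 18743754, with a partner of 2017 bp whose right edge lay 1457 bp away.

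Matched *wdr-5* peaks stood farther apart than other *wdr-5* peaks. The nearest peak of the same list was 912.5 bp away at the median (from 799 to 1026 bp), against 420 bp for overlapped *wdr-5* peaks that were not matched (from 384 to 457 bp) and 654 bp for those with no overlap (from 619 to 688 bp). A neighbour within 200 bp was present for 22.9% of the matched *wdr-5* peaks, and for 33.9% of the overlapped but unmatched ones. In the *jhdm-1* list the nearest peak was 2658.5 bp from a matched peak at the median (from 2453 to 2974 bp), 2395.5 bp from another overlapping peak (from 2267 to 2511 bp) and 3107 bp from a peak with no overlap (from 2928 to 3322 bp). The intervals of matched and other overlapping *jhdm-1* peaks overlap. The overlapped *wdr-5* peaks that were not matched were also shorter than the matched ones, with a median of 488.5 bp against 957 bp. Length enters the rule that made these groups, so the spacings are descriptions and were not tested.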

How the data were processed

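H3K9me2 ChIP-seq was performed by the authors on whole mixed-stage animals. Per the labels and the paper's methods, reads were aligned to WS220/ce10 with Bowtie2 and broad peaks were called with MACS2 2.1.1 at a q-value of 0.01. A peak was kept if 2 or more replicates of any genotype and generation held it. The deposited lists give positions in bp (chromosome, start, end) for the union of 4 groups (*jhdm-1*) and 6 groups (*wdr-5*), with no score, coverage or depth. Depth is therefore unknown, no group or replicate can be compared, and a peak missing from a list may have been below detection. Positions are printed counted from 1.

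Peaks were matched with Python 3.11.15 and numpy 2.4.6, and the count was checked with bedtools 2.31.1 (992 peaks). The matching was tested on simulated data. Shares have 95% Wilson intervals (scipy 1.17.1) and medians have 95% order-statistic intervals. The length of a chromosome was taken as the highest peak end of both lists. No tests were made. Members, groups and alternatives were chosen with earlier results of these lists known. Peaks named are the 5 longest members, the longest on Chromosomes II to V and X, the 5 closest in their edges (at least 1000 bp, not on Chromosome I), 3 on each side of the threshold, those in the study's browser views and the longest run. A gene table on another build was not used.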

Additional observations from a re-analysis of the deposited data

How the results depend on the processing

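Over 8 results, 74 alternatives gave a value. In 46 the result kept within its interval (for the count, within 1.5 times of it), in 26 it moved further and in 2 it reversed. Unless the rule itself makes the change, the cause was not tested. The number of matched peaks moved that far only with an overlap of 75% of each peak, which left 293. The matched share was 23.7%, 11.32% and 4.98% with an overlap of 40%, 60% and 75%, 15.0% with 50% of the joint length and 14.7% with peaks within 1000 bp merged. The median edge distance followed the rule, with 202, 121.5 and 74 bp for 40%, 60% and 75% and 136 bp for the joint length. It was 219.5 bp with peaks of at least 500 bp, 255.6 bp as a mean and 131.5 bp for members that met only 1 *wdr-5* peak, an alternative added after seeing the data. The median length was 1131 bp with peaks of at least 500 bp, 975.5 and 1214 bp with peaks within 200 and 1000 bp merged, 1173 bp as a mean and 841 bp for members that met only 1 *wdr-5* peak. The length ratio to other overlapping peaks reversed to 1.18 with peaks within 1000 bp merged and to 1.016 for peaks that met only 1 *wdr-5* peak, and was 0.819 with means. The ratio to peaks with no overlap was 1.16 with peaks of at least 500 bp and 1.74 with peaks within 1000 bp merged. The *jhdm-1* peak exceeded its partner in 37.5% of pairs at 75% and in 39.1% for members that met only 1 *wdr-5* peak. The share on the arms was 90.4% at 75%, 87.5% with peaks within 1000 bp merged and 86.6% with 4 parts in place of 3. Leaving out the X chromosome changed no result beyond its interval. No paired analysis was possible because replicates are merged in each list, and for the same reason no replicate could be left out. The lists hold no score, so a stricter threshold was replaced by the minimum length.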
